A study of Homo sapiens with 14 samples.

Results

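The SPANX genes of the A/D group are 5 closely related copies on the X chromosome, SPANXA1, SPANXA2, SPANXB1, SPANXC and SPANXD. They were chosen by gene symbol from the 62749 genes of the deposited transcript tables, and all 5 of the 5 listed were found. The genes were proposed because earlier results of these data showed them far lower in FASN knockdown than in control tumours, so their knockdown comparison is given as a description with no test.

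SPANX proteins are made in round spermatids after meiosis and stay with the nucleus of the sperm. The family belongs to the cancer-testis genes, which are silent in most adult tissues apart from the testis and are switched on in many tumours, melanoma and carcinomas among them. Promoters of such genes are commonly methylated in cells that do not express them. The SPANX-N genes, also on the X chromosome, are the older branch of the family, and the A/D group arose from it in the hominoid lineage.

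The RNA came from tumours that the human bladder cancer line UMUC3 formed after engraftment into mice. There were 3 libraries of FASN knockdown cells and 3 of control cells, both kept in regular medium before engraftment, and 4 of FASN knockdown cells and 4 of control cells, both pre-exposed to 10% cigarette smoke medium (CSM) before engraftment. FASN encodes fatty acid synthase. The titles describe the control cells as carrying a control sh construct, all groups share the UMUC3 background, and the labels give neither the knockdown construct nor whether each kind of cell was 1 clone or a pool. Nor do they say that each library had its own animal, so spreads and p-values describe these libraries and may in part be technical. Smoke exposure ended before engraftment as far as the labels say, and only human transcripts were quantified.

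The libraries held 15810287 to 45209466 counts, and 2.64% to 25.6% of them fell on 7SL RNA, the RNA of the signal recognition particle. FASN itself, the check of the labels, was at 118, 97.6 and 135 CPM (counts relative to the library's TMM-scaled total) in the FASN knockdown libraries, against 581, 400 and 374 CPM in control libraries. After CSM it was at 223, 164, 303 and 493 CPM in libraries labelled FASN knockdown, against 465, 480, 417 and 359 CPM in control libraries. Replicate 4 of this knockdown group stood at 115% of the control mean, which goes against its label. All tests across features were edgeR quasi-likelihood tests, with p-values adjusted by Benjamini-Hochberg over 22556 features and called below 0.05, and a log2 difference is the fitted log2 fold change of the first group named over the other. In regular medium FASN fell by 1.95 (log2, SE 0.34, edgeR adjusted p = 0.0293), a call that did not survive leaving out any 1 of the 6 libraries (edgeR adjusted p from 0.0592 to 0.141). After CSM its log2 difference was -0.54 (SE 0.29, edgeR adjusted p = 0.323), which turned to 0.19 on the TPM scale. Male germ cell markers were near 0, with a summed level of 0.240 to 1.41 CPM over 10 genes, and AKAP4, ODF1, PRM1 and PRM2 were at 0 in every group. Urothelial and epithelial markers, 20 genes of which 8 or 9 averaged at least 1 CPM in a group, were mainly KRT18 and KRT8, while KRT20 and UPK3A, which mark differentiated urothelium, were at 0 in every group. They summed to 201 to 313 CPM in FASN knockdown libraries, against 242 to 302 CPM in control libraries, and after CSM to 189 to 224 CPM in knockdown libraries, against 287 to 352 CPM in control libraries, where the groups did not overlap. In regular medium 10 fibroblast markers did not overlap either (38.4 to 45.3 CPM in FASN knockdown, against 32.2 to 37.4 CPM in control). Nor did 8 endothelial markers (2.40 to 3.25 CPM in FASN knockdown, against 1.49 to 2.34 CPM in control). After CSM both sums overlapped. Fibroblast markers were then at 17.2 to 37.3 CPM in FASN knockdown, against 34.2 to 50.7 CPM in control. Endothelial markers were at 1.66 to 2.44 CPM in FASN knockdown, against 1.46 to 2.80 CPM in control. Of single tested features, 4.55% were higher without overlap in regular medium and 6.99% were lower after CSM. The part of these markers in the knockdown differences below was not tested.

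The copies lie on chromosome X of GRCh38.p14 within 696 kb. SPANXB1 (ENSG00000227234.2) spans 141002594 to 141003706, SPANXC (ENSG00000198573.7) 141241463 to 141242517, and SPANXA1 (ENSG00000198021.8) 141583674 to 141584738. SPANXA2 (ENSG00000203926.5) spans 141589708 to 141590762 and SPANXD (ENSG00000196406.4) 141697411 to 141698739. Sequences before the start sites of 3 copies are shown because they show how alike these copies are there. They are 200-base stretches of the RefSeq promoter windows (GRCh38.p14, 250 bases before to 50 bases after the start), read 5′ to 3′ on the strand of the gene, with CpG dinucleotides in capitals.
SPANXA1 (chrX:141584789-141584988, minus strand): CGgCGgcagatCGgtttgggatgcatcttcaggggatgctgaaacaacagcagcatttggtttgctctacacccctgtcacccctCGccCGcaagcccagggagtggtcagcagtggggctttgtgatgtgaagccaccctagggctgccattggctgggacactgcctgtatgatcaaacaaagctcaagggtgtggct
SPANXC (chrX:141242568-141242767, minus strand): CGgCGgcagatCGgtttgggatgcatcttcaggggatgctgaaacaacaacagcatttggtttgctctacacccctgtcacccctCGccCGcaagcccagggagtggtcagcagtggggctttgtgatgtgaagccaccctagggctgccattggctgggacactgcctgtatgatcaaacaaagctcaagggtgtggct
SPANXB1 (chrX:141002383-141002582, plus strand): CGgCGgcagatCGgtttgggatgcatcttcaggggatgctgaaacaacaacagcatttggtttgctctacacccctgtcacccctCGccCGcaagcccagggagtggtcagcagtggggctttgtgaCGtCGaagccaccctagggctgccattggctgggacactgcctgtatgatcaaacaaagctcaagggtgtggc

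The stretch of SPANXA2 (chrX:141589458-141589657, plus strand) is identical to that of SPANXA1 in all 200 bases. The SPANXB1 stretch was chosen for its best match to SPANXA1 and begins 211 bases before the start, while the others begin 250 bases before it. No stretch of SPANXD is shown. Its window matched that of SPANXA1 at 88 of 297 bases (29.6%) in the best alignment without gaps, at shifts of up to 200 bases. Larger shifts were not searched, so this does not show that SPANXD lacks such a stretch. Its transcript in the deposited tables is 682 bases long, against 418 bases for SPANXA1. SPANXC differed from SPANXA1 at 1 of the 200 bases, and SPANXB1 differed from it by 2 mismatches and 1 inserted or deleted base. The stretches of SPANXA1 and SPANXC hold 5 CpG dinucleotides each, and that of SPANXB1 holds 7. Over the whole 300-base windows the copies held 6 (SPANXA1), 6 (SPANXA2), 9 (SPANXB1), 8 (SPANXC) and 7 (SPANXD). Over 35114 promoters of the same length the median was 14 and the quartiles were 4 and 28, so the copies lay below the median but between the quartiles. The CCAAT motif, searched on both strands, was found in the windows of 5 of the 5 copies and in 34.6% of all promoters. TATAAA, searched likewise, was found in 0 of them and in 11.5% of all promoters. No methylation was measured in these samples.

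The transcripts share sequence to unequal degrees, which limits what can be said of a single copy. In the GENCODE 29 transcripts, 100% of the 31-base stretches of SPANXA1 and SPANXA2 also occur in another copy, 94.7% of those of SPANXC, 83.1% of those of SPANXD and 29.6% of those of SPANXB1. For SPANXD the deposited tables use the same transcript version, and for the other copies a later one. There SPANXA1 and SPANXA2 are 418 and 408 bases long, against 691 bases each in GENCODE 29. The shares in the later versions were not computed. Salmon divides reads that fit several copies between them, so the sum over the copies is the main value here and each single copy is uncertain. None of these stretches occurs in the GENCODE 29 transcripts of SPANXA2-OT1, the long non-coding RNA that overlaps SPANXA1 and SPANXA2. Whether these are the SPANXA2-OT1 transcripts counted in the deposited tables was not checked.

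The SPANX family was expressed in every library of control cells and was close to absent in every library of FASN knockdown cells. Over the 7 knockdown libraries 190 counts were assigned to the family, against 23382.883 counts over the 7 control cell libraries (the counts are estimates and need not be whole). In regular medium the 3 knockdown libraries held 16, 13 and 21 family counts, against 3960.882, 2229.001 and 1308 in the 3 control libraries. On the CPM scale this was 0.549, 1.08 and 0.628 in FASN knockdown libraries, against 91.0, 62.0 and 33.9 in control libraries. The groups did not overlap, and the highest knockdown library lay far below the lowest control library. The mean was 0.751 CPM ± 0.284 in FASN knockdown and 62.3 CPM ± 28.5 in control libraries (SD, n = 3 each), so the knockdown level was 1.21% of control.

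After CSM the picture was the same in kind. Knockdown libraries held 0.690, 1.99, 0.566 and 0.796 CPM, against 124, 40.1, 247 and 34.6 CPM in control libraries. The means were 1.01 CPM ± 0.66 and 111 CPM ± 99.0 (SD, n = 4 each), which puts the knockdown at 0.908% of control. Control replicate 3 was the highest of all 14 libraries on this scale. The fitted log2 difference was -6.46 (SE 0.82) in regular medium and -6.80 (SE 0.70) after CSM, beside a median over all tested features of 0.01 and 0.03. Fewer cells that express the family and less family RNA per cell cannot be told apart in such bulk samples.

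**Figure D1:**
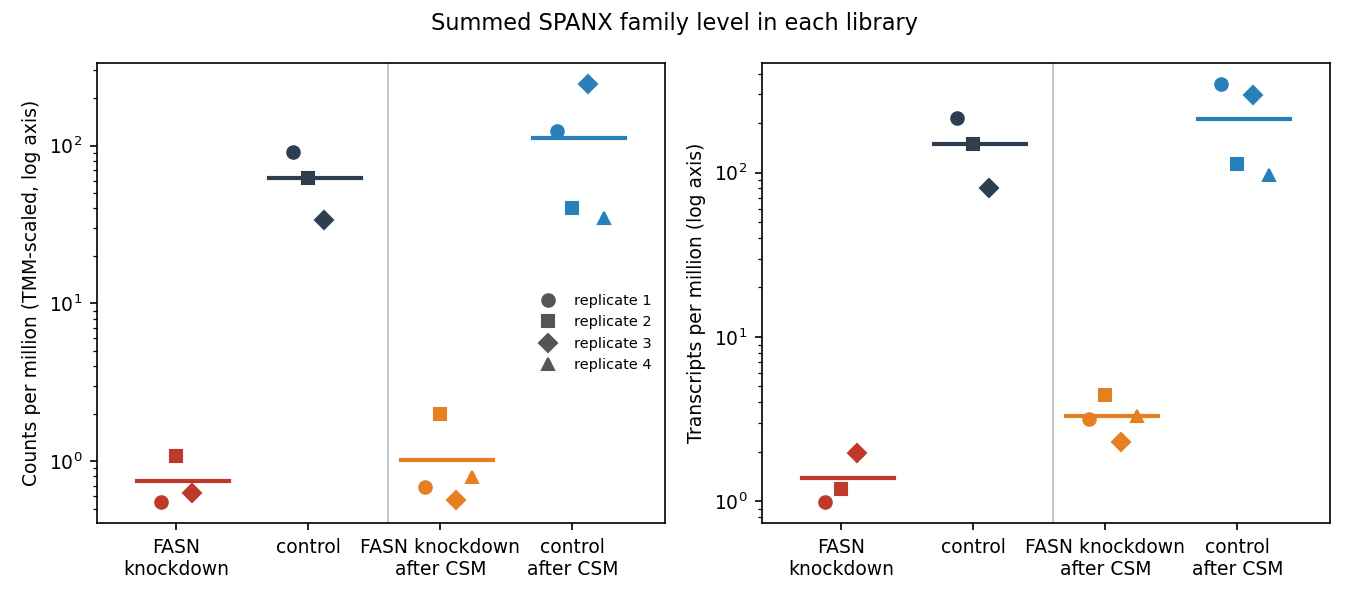
Summed SPANX family level per library, in CPM (left) and TPM (right), both on log axes; points are libraries, shapes are replicate numbers and bars are group means. The FASN knockdown libraries reach at most 1.99 CPM, and the control cell libraries are at 33.9 CPM or above.

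On the scale of TPM, the share of transcripts, which accounts for transcript length, the FASN knockdown libraries stood at 0.988, 1.19 and 1.97 TPM and the control libraries at 215, 150 and 80.4 TPM. The libraries labelled FASN knockdown after CSM stood at 3.19, 4.45, 2.28 and 3.29 TPM and the control libraries after CSM at 346, 112, 297 and 97.3 TPM. The groups stayed apart on this scale too, but the order within them changed: replicate 1 and not replicate 3 was the highest control library after CSM, and the knockdown libraries after CSM lay above those of regular medium. The whole scale was shifted there. On log2(TPM + 1) the median of all tested features rose by 0.59 after CSM in knockdown cells, beside 0.85 for the family. From low to high the group means in CPM ran from FASN knockdown to FASN knockdown after CSM, control and control after CSM. The first pair overlapped in its ranges, and so did the second pair.

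Set side by side in each library, the family and FASN levels of the knockdown cells had no common order. Replicate 4 of the group labelled FASN knockdown after CSM had the FASN level of a control library, 493 CPM, and a family level of 0.796 CPM, within the range of the other 6 knockdown libraries. The library with the lowest FASN level, replicate 2 of the FASN knockdown in regular medium at 97.6 CPM, had a family level of 1.08 CPM, above those of 5 of the other 6. Whether the low family level belongs to the loss of FASN or to the knockdown cells for another reason was not tested, since no group with another construct was analysed here.

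**Figure D2:**
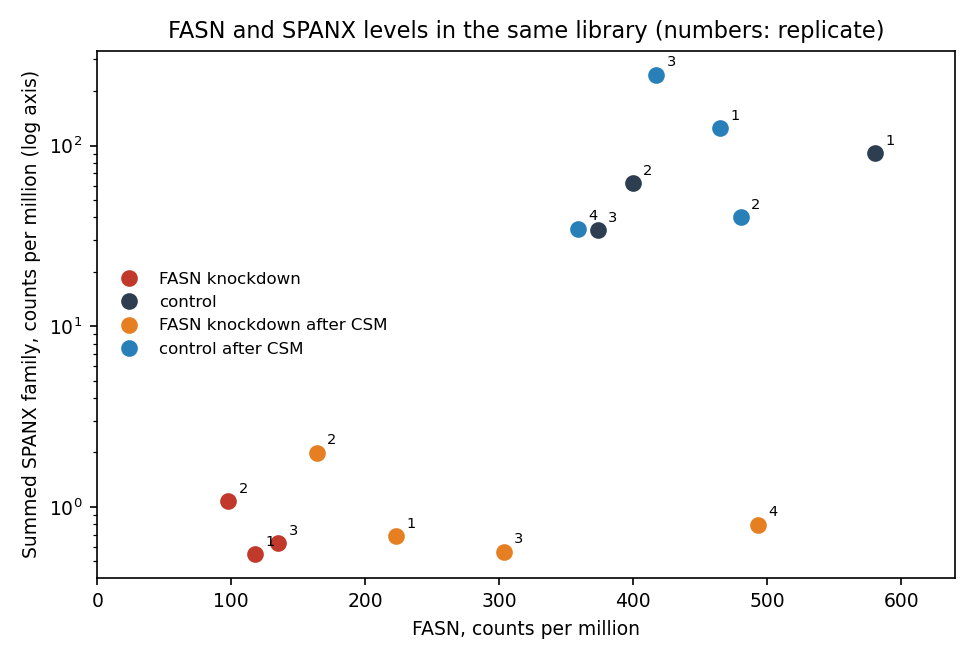
FASN level (x axis, CPM) against the summed SPANX family level (y axis, CPM, log axis) in each of the 14 libraries, numbered by replicate within a group. Replicate 4 of the FASN knockdown after CSM sits at 493 CPM of FASN among the control libraries on the x axis, and at 0.796 CPM of SPANX among the knockdown libraries on the y axis.

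Each of the 5 copies had lower levels in every knockdown library than in any control library of the same medium. This held for 5 of 5 copies in each medium, where 7.25% of all 22556 tested features were lower without overlap in regular medium and 6.99% after CSM. The copies were chosen on this contrast, so nothing is read from these counts. SPANXA1 had 0 counts in all 7 knockdown libraries, against 661.211 counts over the 3 control libraries and 1567.571 over the 4 control libraries after CSM. Set against a floor of 3 counts per group this is at least 140-fold lower in regular medium and at least 435-fold lower after CSM. SPANXC also had 0 counts in all 7 knockdown libraries, at least 28.7-fold lower in regular medium and at least 35.1-fold lower after CSM. SPANXA2, whose GENCODE 29 transcript shares all its 31-base stretches with SPANXA1, had counts above 0 in each of these libraries, and how the authors' counting divided reads between both copies was not tested.

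The knockdown libraries kept traces of the other 3 copies. SPANXB1 had 8, 4 and 9 counts in FASN knockdown libraries, against 2519.495, 845.922 and 559.381 in control libraries, a ratio of mean CPM of 110-fold. After CSM it had 19, 44, 11.565 and 16 counts in knockdown libraries, against 1709.037, 663.976, 3628.523 and 734.965 in control libraries, a ratio of 69.3-fold. SPANXB1 is the copy with the smallest share of sequence in common with the rest, and replicate 2 of the knockdown after CSM was its highest knockdown library. SPANXA2 was lower in FASN knockdown by 43.8-fold in regular medium and by 126-fold after CSM, as ratios of mean CPM. SPANXD was lower by 73.2-fold and by 243-fold, with 0 counts in 2 of the 7 knockdown libraries. These are single copies of uncertain assignment, and counts of this size move a ratio easily.

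In the control cells all copies were detected in all 7 libraries, at levels that differed between copies. On the TPM scale SPANXB1 ran from 33.5 to 137 TPM with a median of 56.7 TPM and was the highest copy in 6 of the 7 libraries. SPANXA2 ran from 22.9 to 113 TPM (median 43.8 TPM) and was the highest copy in the remaining library, replicate 2 of the control in regular medium. SPANXA1 ran from 12.1 to 57.5 TPM (median 18.7 TPM) and SPANXD from 7.04 to 39.7 TPM (median 11.0 TPM). SPANXA1 stood above SPANXD in 5 of 7 libraries, so this pair has no fixed order. SPANXC was the lowest copy in 7 of 7 libraries, from 0.250 to 8.26 TPM, and varied most, by 33.0-fold against 4.09-fold for SPANXB1. Its levels were 8.26, 0.936, 1.26 and 0.321 TPM in control libraries after CSM, against 7.74, 1.17 and 0.250 TPM in control libraries from regular medium, so 1 library in each medium stood above the rest.

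**Figure D3:**
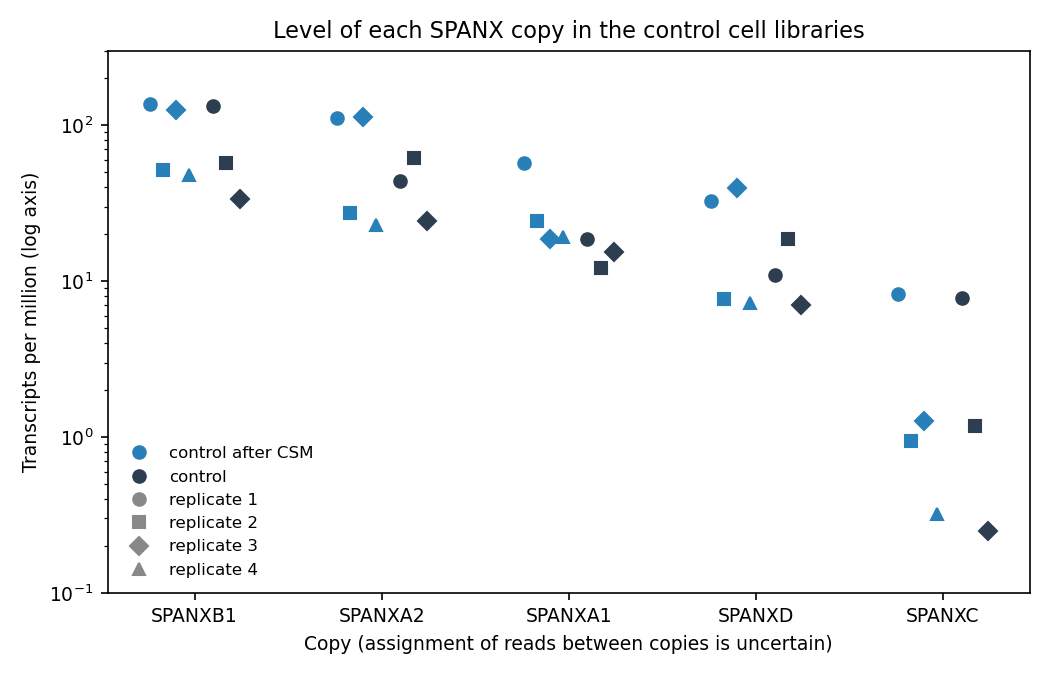
Level of each SPANX copy in the 7 control cell libraries, in TPM on a log axis; colours are the media and shapes the replicate numbers. SPANXB1 reaches 137 TPM and SPANXC lies lowest in each library, between 0.250 and 8.26 TPM.

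The comparison of CSM with regular medium is independent of how the genes were chosen. In control cells the family did not pass the test: the log2 difference was 0.84 after CSM (SE 0.59, 95% interval -0.47 to 2.14, unadjusted p = 0.174, edgeR adjusted p = 1.00). The interval runs from 0.722-fold to 4.42-fold, so these libraries exclude neither an unchanged level nor a change of a size within it. The mean of log2(CPM + 1) was 6.36 ± 1.34 (SD, n = 4) in control cells after CSM and 5.88 ± 0.70 (SD, n = 3) in control cells from regular medium. An exact two-sided permutation test over these 7 libraries gave p = 0.629, where 0.0571 is the smallest value it can give. The positive value rests on replicate 3 of the control after CSM, without which the log2 difference is 0.068. In that library 16.3% of the counts fell on 7SL, against 4.20% to 6.33% in the other 3 of its group. The library with the most 7SL was also the highest in family CPM among the FASN knockdown libraries (25.6%) and among those after CSM (11.3%), but in control libraries from regular medium it was the lowest (9.38%). The part of 7SL in these differences was not tested.

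In FASN knockdown cells the family did not pass the test either, with a log2 difference of 0.49 after CSM (SE 0.73, 95% interval -1.14 to 2.13, unadjusted p = 0.511, edgeR adjusted p = 0.942). The exact permutation test over these 7 libraries gave p = 0.686. Without replicate 2 of the knockdown after CSM the value turned to -0.074. Taken singly, no copy was called in either comparison. The smallest unadjusted p was that of SPANXA1 in control cells, 0.0426 (log2 difference 0.99, SE 0.43, edgeR adjusted p = 1.00), and SPANXC went the other way (-0.22, SE 1.20). Of all 22556 features edgeR called 0 in either CSM comparison, with 307 at an unadjusted p below 0.05 in control cells and 1493 in knockdown cells, while DESeq2 called 6 and 52 features. The knockdown difference of the family after CSM minus that in regular medium was -0.34 on the log2 scale (SE 0.94, 95% interval -2.44 to 1.76, edgeR adjusted p = 0.991).

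The older relatives of the family were close to silent everywhere. Of the 5 SPANX-N genes 0 passed the filter on low counts. SPANXN2 had 28 counts over all 14 libraries, 9 in FASN knockdown against 1 in control libraries and 18 in FASN knockdown against 0 in control libraries after CSM. SPANXN5 had 0 counts, and SPANXN1, SPANXN3 and SPANXN4 had 1 to 3 each. All 9 SPANXN2 counts of the knockdown in regular medium lay in replicate 3. After CSM its knockdown libraries had 10, 4, 2 and 2 counts and each control library had 0. Of tested features, 9.16% were higher without overlap there. The main fit did not test the N genes, and counts of this size limit what can be read from them.

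Most other cancer-testis genes were too low in these libraries for the filter on counts. Of 71 X-linked cancer-testis genes in the files 9 passed the filter, and of 30 autosomal ones 11 did. In every library 38 of the X-linked and 5 of the autosomal genes stayed below 0.1 CPM. In at least 1 library 9 and 10 reached 1 CPM. In FASN knockdown against control 0 of the 9 X-linked genes were called in regular medium and 0 after CSM, where 0.186% and 1.11% of all tested features were called. The median log2 difference of the 9 was 0.18 in regular medium and -0.59 after CSM, with 5 and 2 of them positive. An unadjusted edgeR p below 0.05 was found for 1 of the 9 in regular medium and 5 after CSM. Of all 22556 features 2040 and 4108 had one. MAGEC2, a partner of a ubiquitin ligase, was the most highly counted neighbour of this class and is described with the chromosome region. MAGEA1, a classic tumour antigen, had a log2 difference of -3.97 in regular medium (SE 1.46, edgeR adjusted p = 0.421), and MAGEC3 one of -2.50 (SE 1.28, edgeR adjusted p = 0.593). After CSM MAGEC3 was at -3.06 (SE 1.09, edgeR adjusted p = 0.162), and CT45A5 was at 1.29 (SE 0.47, edgeR adjusted p = 0.170).

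PRAME, an autosomal cancer-testis gene on chromosome 22 whose protein represses retinoic acid receptor signalling, was called in both media. It stood at 1.27, 2.57 and 1.79 CPM in FASN knockdown libraries, against 10.2, 6.90 and 5.71 CPM in control libraries. After CSM it stood at 0.540, 0.743, 0.962 and 0.901 CPM in knockdown libraries, against 3.66, 5.40, 5.90 and 5.11 CPM in control libraries. The groups did not overlap in either medium, where 7.25% of tested features were lower without overlap in regular medium and 6.99% after CSM. PRAME fell by 2.04 (log2) in regular medium (SE 0.38, edgeR adjusted p = 0.0444) and fell by 2.66 after CSM (SE 0.34, edgeR adjusted p = 0.00164). The regular medium call did not survive leaving out any 1 of its 6 libraries (edgeR adjusted p from 0.0631 to 0.195), while the call after CSM held in all 8 such fits. It was the 1 autosomal gene called of 11, where 0.16% of all features were called lower in regular medium and 0.674% after CSM. The 11 had a median log2 difference of 0.02 in regular medium and -0.04 after CSM.

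Genes that act beside SPANX in spermatids were mostly low, and 12 stayed below 0.1 CPM in every library. Of 27 such genes 6 passed the filter and 0 were called in either medium, with medians of -0.68 in regular medium and -0.38 after CSM. TSGA10, a protein of the sperm tail sheath, was at -1.36 (SE 0.46) and the testis heat shock gene HSPA1L at -0.96 (SE 0.45) in regular medium, with edgeR adjusted p = 0.362 and 0.550. After CSM the kinase gene TSSK6 was at -0.95 (SE 0.76) and AKAP3, an anchor of the fibrous sheath, at -0.42 (SE 0.53), with edgeR adjusted p = 0.511 and 0.688.

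Genes of the machinery that keeps cancer-testis promoters silent showed no called difference. Of the DNA methylation genes 22 of 23 were tested and 0 were called, with medians of -0.09 in regular medium and 0.01 after CSM. In regular medium TDG, a glycosylase of active demethylation, was at 0.57 (SE 0.24, edgeR adjusted p = 0.487). After CSM MBD2, which binds methylated DNA, was at -0.53 (SE 0.22, edgeR adjusted p = 0.214). Of the histone silencing genes 34 of 34 were tested and 0 were called, with medians of -0.07 and -0.09. The lowest p in regular medium was that of MGA, a factor that recruits Polycomb complexes, at -0.38 (SE 0.20, edgeR adjusted p = 0.591), followed by ATF7IP, a partner of the methyltransferase SETDB1, at -0.33 (SE 0.18, edgeR adjusted p = 0.611). After CSM they were HDAC3, a histone deacetylase, at -0.57 (SE 0.20, edgeR adjusted p = 0.152), and RNF2, a Polycomb ubiquitin ligase, at -0.59 (SE 0.26, edgeR adjusted p = 0.251).

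In tumour cells SPANX proteins have been reported to bind lamins, and SPANXA to act on JUN and SNAI2 signalling, so those genes were read as well. Of the nuclear lamina and envelope genes 22 of 25 were tested and 0 were called, with medians of 0.08 in regular medium and -0.14 after CSM. SYNE1, a giant protein of the nuclear envelope, was at -0.44 (SE 0.24) and the lamin gene LMNB2 at -0.48 (SE 0.26) in regular medium, with edgeR adjusted p = 0.618 and 0.624. After CSM the lamin-binding TOR1AIP1 was at -0.27 (SE 0.17) and the chromatin bridge BANF1 at -0.72 (SE 0.45), with edgeR adjusted p = 0.390 and 0.399. Of the JUN, SNAI2 and mesenchymal genes 14 of 16 were tested and 0 were called, with medians of -0.07 and -0.19. CDH2, the N-cadherin gene, stood at 173, 161 and 78.6 CPM in FASN knockdown libraries, against 22.9, 42.4 and 52.1 CPM in control libraries, with a log2 difference of 1.81 (SE 0.49, edgeR adjusted p = 0.213). After CSM CDH2 was at 1.45 (SE 0.42, edgeR adjusted p = 0.0994), again without overlap, as were 4.55% of tested features on the higher side in regular medium and 9.16% after CSM. DESeq2 called CDH2 higher in both media (DESeq2 adjusted p = 0.0156 and 0.0155), and so did edgeR with no filter on low counts. SNAI1, an inducer of mesenchymal change, was at -1.98 in regular medium (SE 0.74, edgeR adjusted p = 0.426), and JUNB, an AP-1 subunit, was at -1.33 after CSM (SE 0.53, edgeR adjusted p = 0.207). In the CSM comparisons 0 members of any of these lists were called, where 0% of all features were.

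Genes next to the copies were less far from control than the copies themselves, or not lower at all. Between the first and the last copy RefSeq places 7 other genes, of which 5 were in the files and 1, SPANXA2-OT1, was tested. This locus spans 141502849 to 141649939 and so contains SPANXA1 and SPANXA2. Its RNA was at 1.74, 2.82 and 2.89 CPM in FASN knockdown libraries, against 2.24, 1.55 and 1.49 CPM in control libraries. After CSM it was at 3.24, 3.67, 3.37 and 3.47 CPM in knockdown libraries, against 2.45, 1.62, 1.34 and 1.46 CPM in control libraries, where all 4 knockdown libraries lay above all 4 controls, as 9.16% of tested features did. The log2 difference was 0.49 (SE 0.36, edgeR adjusted p = 0.770) in regular medium and 1.00 (SE 0.32, edgeR adjusted p = 0.118) after CSM, so neither passed the edgeR test and both were positive. DESeq2 called the difference after CSM (DESeq2 adjusted p = 0.0190). LDOC1, the other protein-coding gene in the interval, had 47.013 counts over all 14 libraries and was not tested.

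Beyond the copies the 8 nearest tested genes on each side were read. With SPANXA2-OT1 this made 17 genes, of which 0 were called in regular medium and 1 after CSM, where 0.186% and 1.11% of all tested features were called. The log2 difference was negative for 14 of the 17 in regular medium and for 13 after CSM, with medians of -0.32 and -0.55. Of these, 7 within 2 Mb of a copy are given with values. LINC00632, the long non-coding RNA from which the circular RNA CDR1as is made, lies 211 kb before SPANXB1. It was at 20.1, 18.3 and 52.4 CPM in FASN knockdown libraries, against 432, 217 and 266 CPM in control libraries. After CSM it was at 34.1, 27.0, 32.9 and 110 CPM in knockdown libraries, against 440, 159, 150 and 106 CPM in control libraries, and replicate 4 of the knockdown overlapped the controls. Its log2 difference was -3.33 (SE 0.65, edgeR adjusted p = 0.0572) in regular medium and -2.07 (SE 0.53, edgeR adjusted p = 0.0717) after CSM, just short of the threshold. Replicate 4 is the library whose FASN level goes against its label, and without it the value after CSM was called (edgeR adjusted p = 0.0320).

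SLITRK4, a neuronal membrane protein gene 1924 kb after SPANXD, was the 1 neighbour called by edgeR. It was at 6.21, 14.1, 3.96 and 8.13 CPM in knockdown libraries after CSM, against 27.3, 44.1, 40.5 and 33.1 CPM in control libraries after CSM, and fell by 2.16 (log2, SE 0.46, edgeR adjusted p = 0.0398). The call was lost in 6 of the 8 fits that left out 1 library, all but those without replicate 2 of the knockdown and without replicate 1 of the control, with edgeR adjusted p = 0.122 at most. In regular medium SLITRK4 had a log2 difference of -2.69 (SE 0.55, edgeR adjusted p = 0.0680). FGF13, which encodes a binding partner of sodium channels, lies 1798 kb before the copies. It was at -2.51 (SE 0.56, edgeR adjusted p = 0.0983) in regular medium and at -2.01 (SE 0.47, edgeR adjusted p = 0.0535) after CSM. SLITRK4 and FGF13 passed in regular medium when replicate 1 of the control was left out, with edgeR adjusted p = 0.0260 and 0.0163.

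Of the other near genes MAGEC2, MAGEC3 and HAPSTR2 were not called by edgeR in either medium. MAGEC2, a cancer-testis gene 504 kb after SPANXD, was at 94.7, 115 and 48.9 CPM in FASN knockdown libraries, against 71.5, 101 and 121 CPM in control libraries, which overlapped. Its log2 difference was -0.19 (SE 0.31, edgeR adjusted p = 0.939) in regular medium, where it turned to 0.091 without replicate 3 of the knockdown, and -0.71 (SE 0.27, edgeR adjusted p = 0.189) after CSM. MAGEC3, the nearest gene after the copies at 140 kb, was at 1.14 CPM at most, and its log2 differences of -2.50 in regular medium and -3.06 after CSM carry the errors given above. DESeq2 called it after CSM (DESeq2 adjusted p = 0.0425). HAPSTR2, a retrocopy of HAPSTR1, was at a mean of 0.085 CPM in FASN knockdown and 0.162 CPM in control libraries, with a log2 difference of -1.09 (SE 1.48, edgeR adjusted p = 0.915) in regular medium and of -0.94 (SE 1.15, edgeR adjusted p = 0.679) after CSM. In size, the differences of these 7 genes were below the -6.46 and -6.80 of the family, as the plot of neighbours shows.

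**Figure D4:**
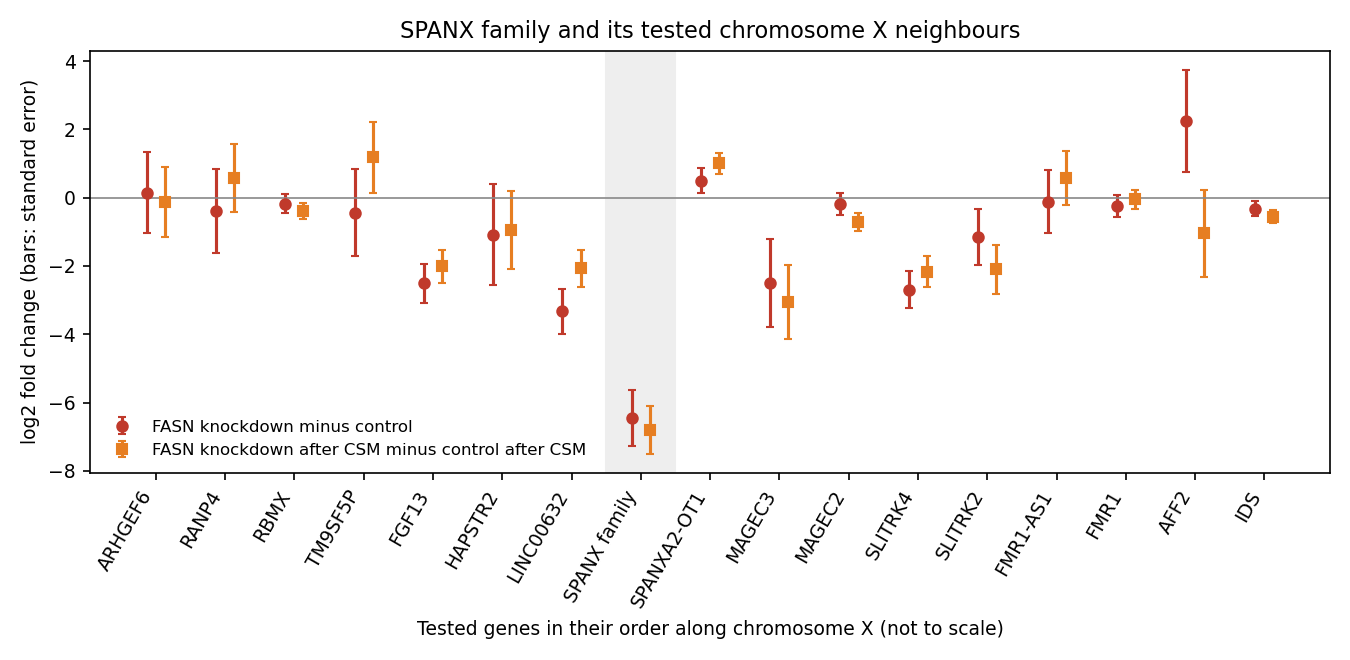
Log2 fold change of FASN knockdown against control in regular medium (circles) and after CSM (squares) for the summed SPANX family (shaded) and 16 tested genes in their order along chromosome X, with standard errors; SPANXA2-OT1 overlaps the copies. The family lies at -6.46 and -6.80, and the neighbour nearest to it in value is LINC00632 at -3.33 in regular medium.

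The genes whose profile over the 14 libraries lay closest to that of the family were autosomal but for 1 with a known position. Likeness was the root mean square difference of log2 CPM after centring each of 22555 features on its own mean, where 0 means the same profile. The median over all features was 3.34, and FASN stood at 2.77. AJAP1, a membrane protein gene of adherens junctions on chromosome 1, was nearest at 0.956, at 0.209 to 0.686 CPM in FASN knockdown against 20.8 to 65.6 CPM in control libraries. A gene listed only as ENSG00000290558 followed at 1.00. ADGRL3, an adhesion receptor gene on chromosome 4, was at 1.20, with 1.23 to 2.90 CPM in FASN knockdown and 42.8 to 136 CPM in control libraries. LPAR1, the receptor for lysophosphatidic acid, was at 1.29, and EPHA5, an ephrin receptor, at 1.33. The potassium channel gene KCNT2, the retinaldehyde dehydrogenase gene ALDH1A3 and the proteoglycan gene SPOCK3 were each at 1.35. TMEM47, on chromosome X but far from the copies, and the transcription factor gene TCF21 were at 1.38.

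These 10 were picked for their likeness, so their low levels in knockdown cells are a description. They share libraries and depth with the family. On the log2(TPM + 1) scale 5 of the 10 were again among the nearest 10. Over the 7 control cell libraries the family ranged 7.27-fold in CPM, with replicate 3 of the control after CSM highest at 247 CPM. The 10 ranged from 2.61-fold for LPAR1 to 10.8-fold for SPOCK3 there, and 2 of them, SPOCK3 and TMEM47, more widely than the family.

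**Figure D5:**
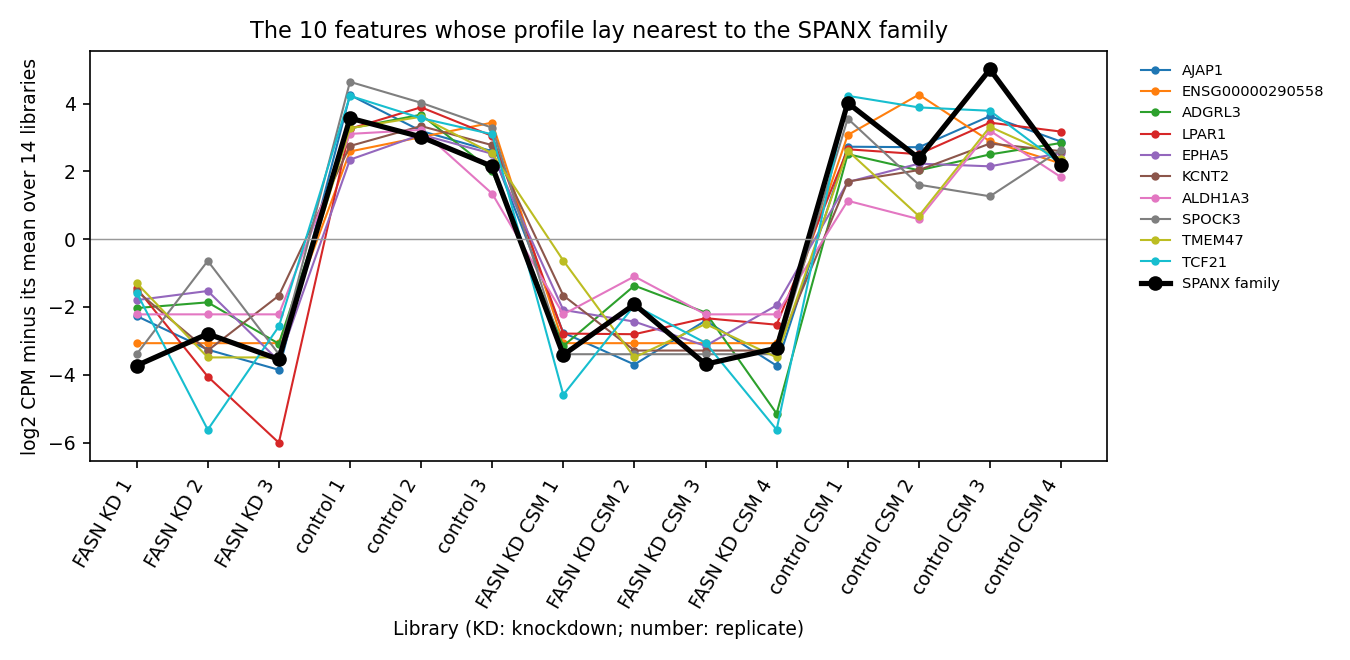
Log2 CPM of the SPANX family (black) and of the 10 features nearest to it, each minus its own mean over 14 libraries, with libraries ordered by group along the x axis. All 11 profiles lie below 0 in the 7 knockdown libraries and above 0 in the 7 control cell libraries, and the family peaks in replicate 3 of the control after CSM.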

How the data were processed

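RNA was measured in 14 xenograft libraries, grouped by their titles. The authors deposited Salmon tables with expected counts (estimated reads per transcript) and TPM for 252048 human transcripts; the submitters' processing notes list FastQC, cutadapt, Salmon and GRCh38, with no version, Salmon setting or annotation release. How Salmon divided reads that fit several SPANX copies therefore sets the single-copy values. Expected counts were summed per gene, the 5 copies folded into 1 row, and rounded. Tests used edgeR 4.0.16 in R 4.3.3 (TMM, filterByExpr, minimum count 10, minimum total 15, all 14 libraries in 1 fit, residual df 10, biological coefficient of variation 0.446), giving 22556 features, called at an adjusted p below 0.05. The 95% intervals took the fitted value, its SE and a t distribution with 10 df, which is not the reference of the edgeR p beside them. Family levels were also compared by exact permutation of log2(CPM + 1).

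The members, lists and tests were chosen with earlier results of these data known. Named genes were the called members of each list (up to 3), or, with none called, the 2 of smallest p, then tested neighbours on chromosome X (RefSeq) and the 10 features of nearest profile; in the CSM comparisons, where nothing was called, list members were not named, and values of neighbours are given within 2 Mb. Alternatives were DESeq2 1.42.0, limma 3.58.1 on log2(TPM + 1), other filters and scalings, a replicate block and leaving out each library. The tests were also run on simulated counts. Replicate numbers were not used to pair the libraries (see the effect of a block in the closing section). Some genes that this rule names are not reported here, though counts and medians over lists include them. Bounds against 0 cover counting error only.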

Additional observations from a re-analysis of the deposited data

Results flagged for a closer look

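In each group of 4 libraries the highest and lowest values of the family, its copies, FASN, PRAME, CDH2 and the near neighbours were compared with the gap to the next library by Dixon's criterion. It picked out 4 of 30 groups checked. Its chance rate of about 1 in 20 is for independent, normally distributed values. The values here were CPM without a log, and the family shares counts with its copies, so the 4 cannot be weighed against that rate. The SPANX family was at 1.99 CPM in replicate 2 of the FASN knockdown after CSM, above 0.566 to 0.796 CPM in the other 3 libraries of its group. LINC00632 was at 110 CPM in replicate 4 of the FASN knockdown after CSM, the library whose FASN level goes against its label, above 27.0 to 34.1 CPM in the other 3. LINC00632 was also at 440 CPM in replicate 1 of the control after CSM, above 106 to 159 CPM in the other 3. MAGEC3 was at 0.300 CPM in replicate 1 of the FASN knockdown after CSM, above 0 to 0.0283 CPM in the other 3. Of 10 named genes, 0 had an edgeR knockdown effect that differed between the media (smallest adjusted p = 0.948, that of FASN with an unadjusted p = 0.00566).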

How the results depend on the processing

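The family stayed lower in FASN knockdown in both media under every setting run. Leaving out 1 library gave -6.76 to -6.08 in regular medium and -7.36 to -6.05 after CSM. The value moved to -5.44 after CSM with limma on log2(TPM + 1), to -7.97 after CSM as the median of copies kept apart, and to -4.28 in regular medium and -4.62 after CSM when all SPANX symbols, SPANXA2-OT1 and the N genes included, were summed. In the CSM comparisons leaving out 1 library gave 0.068 to 1.21 in control cells and -0.074 to 0.72 in knockdown cells, the lowest without replicate 2 of the knockdown after CSM, and copies kept apart gave -0.13 in knockdown cells; the family was called under none of the settings.

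Of the listed genes 1 was called in each knockdown contrast. With DESeq2 it was 2 in regular medium and 3 after CSM, with no filter 3 and 5, and with limma on TPM 0 and 0. In regular medium it was 0 with only the groups compared, with the replicate block, without the libraries over 15% 7SL (chosen after seeing the data) and in each leave-one-out fit (0 to 0). Over all features the 42 calls in regular medium became 330 with DESeq2, 385 with no filter, 15 with only the groups compared, 16 with the block, 13 with limma, 16 without the libraries high in 7SL and 10 to 34 in leave-one-out fits. The 251 calls after CSM became 1456, 1170, 425, 62, 52, 130 and 77 to 169 under the same settings. LINC00632, FGF13 and SLITRK4 in regular medium, and LINC00632 and FGF13 after CSM, were called with DESeq2 and with no filter, as was CDH2 in both media. After CSM DESeq2 also called MAGEC3 and SPANXA2-OT1, and edgeR with no filter called CT45A5 and JUNB after CSM and SNAI1 in regular medium. LINC00632 in regular medium was also called with 7SL counts removed (edgeR adjusted p = 0.0448) and with copies kept apart (0.0429), and FGF13 after CSM with only the groups compared (0.0195) and without replicate 1 of the control (0.0497). The CSM comparisons, with 0 calls each, had 6 and 52 with DESeq2 and 62 and 175 with no filter.

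Same-numbered libraries correlated at -0.19 to 0.31. Between knockdown and control cells 0 libraries correlated best with their own number, in either medium. In each CSM comparison 2 of the 4 libraries after CSM did so. The main fit did not pair libraries by number. With the replicate block the family was at -6.45 in regular medium, -6.61 after CSM, 0.97 for CSM in control cells and 0.82 for CSM in knockdown cells, and the calls of FASN and PRAME in regular medium and of SLITRK4 after CSM were lost.

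On the TPM scale the median of all features was -0.14 in regular medium and 0.39 after CSM, against 0.01 and 0.03 on the CPM scale. On it the values after CSM turned to 0.40 for AKAP3, 0.18 for MBD2, 0.28 for HDAC3, 0.31 for RNF2, 0.50 for TOR1AIP1 and 0.19 for FASN, none called, of which AKAP3 and TOR1AIP1 lay above that median. In regular medium leave-one-out fits ran from -0.43 to 0.091 for MAGEC2. The cause of these shifts was not tested. With 13 to 59 family counts per knockdown library, differences between knockdown libraries are limited by counting.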
